A study of Mus musculus with 103 samples.

Results

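The genes described here are kinases and effectors of the integrated stress response in the cortex of adult mice, with RNA and ribosome footprints measured in the same 4 animals. They were chosen as a list of 10 gene symbols, kept where a transcript of the gene was listed in the ribosome profiling table. A transcript was found for 9 of the 10 (Atf4, Ddit3, Chac1, Asns, Atf5, Sesn2, Ppp1r15a, Eif2ak3 and Eif2ak4), out of 12719 transcripts in all, and Trib3 was not analysed here. Beyond their names they were chosen by being listed, which in this table went with an RNA value above 0 in each mouse. The symbols were picked with earlier results of these data known, so the levels below are a description, and the tests are those of a fit over the whole table.

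The KO mice carried floxed Nsun2 and were positive for Camk2a-Cre (mice KO 1 and KO 2). The WT mice also carried floxed Nsun2 but were negative for Camk2a-Cre (mice WT 1 and WT 2). Nsun2 encodes a methyltransferase that places methyl groups on cytosines of tRNA. Camk2a-Cre removes a floxed exon in excitatory neurons of the forebrain, so interneurons, glia and vessel cells of the KO cortex keep the gene, and a cortex homogenate averages over all of them. Each cortex gave an RNA library and a footprint library, the footprints being the ribosome-protected mRNA pieces left by RNase I. The comparison asks how the members' RNA, their footprints and the footprints per unit of RNA (translational efficiency) differ between KO and WT cortex.

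In the integrated stress response, kinases that sense different stresses phosphorylate the initiation factor eIF2 on its alpha subunit. This lowers the start of translation on most mRNAs, while mRNAs with short upstream reading frames, of which Atf4 is the textbook case, are translated more. ATF4 is a basic leucine zipper transcription factor that switches on genes for amino acid synthesis and uptake, tRNA charging and redox balance, and it is followed by CHOP (from Ddit3) when stress persists.

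All values are those deposited, scaled by medians so that libraries compare. The RNA values listed add up to 10465003 to 13174377 reads per library if the smallest step between them is 1 read. These are reads on the listed transcripts only, and the depth behind the corrected footprints is unknown. Transcripts entered the fits with a mean footprint value of at least 10 over the 4 mice, which left 10674. Of the members, 7 passed, with Atf5 (mean footprint value 9.33) and Ppp1r15a (8.05) just below and Ddit3 (22.1) the nearest above. Ddit3 averaged 34.2 in KO and 9.98 in WT, so it passed through its KO values. Values for Atf5 and Ppp1r15a come from the same fits without that filter. Nsun2 itself had RNA values of 362 and 368 in KO mice, against 1292 and 1120 in WT mice, which matches the labels, with a log2 fold change of −1.72 ± 0.12 (SE). With 2 mice per genotype, an exact permutation test of a single gene cannot reach the threshold of 0.05, so calls rest on the limma fits over all transcripts, with Benjamini-Hochberg adjusted p under 0.05. A fit with a mouse left out has a single animal in that genotype. Its p-values rest on the spread of the other genotype and on variance pooled over transcripts, so calls gained or lost there are a description.

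Promoter stretches of 3 members are shown because they hold letters of motifs that ATF4 and its relatives are known to bind. RefSeq windows (GRCm38.p6) from 250 bases before to 50 bases after the start of the gene were searched on both strands, with 11 windows for the 9 members. TGATGNAA, the core of the C/EBP-ATF response element, with N for any base, was in 3.97% of 32851 windows of all genes and in 2 member windows, Chac1 and Asns. TGACGTCA, the full cAMP response element, which reads the same on both strands, was in 1.79% of all windows and in 1 member window, Ppp1r15a. The motifs do not overlap each other in these windows. Capitals mark the match, which on Chac1 lies on the opposite strand and starts 193 bases before RefSeq's start of the gene, on Asns 23 bases before it and on Ppp1r15a 12 bases before it. RefSeq's starts of Chac1 and Asns are not those of GENCODE vM21, from which the gene coordinates further on were taken, and the Asns stretch lies mostly inside the GENCODE span of the gene. Chac1 is chr2:119351009-119351096 (plus strand), Asns is chr6:7693210-7693272 (minus strand) and Ppp1r15a is chr7:45526269-45526320 (minus strand), each printed 5′ to 3′ along the gene.
Chac1: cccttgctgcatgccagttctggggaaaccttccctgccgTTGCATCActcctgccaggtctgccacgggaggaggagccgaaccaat
Asns: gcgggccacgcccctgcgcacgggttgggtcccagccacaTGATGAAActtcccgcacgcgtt
Ppp1r15a: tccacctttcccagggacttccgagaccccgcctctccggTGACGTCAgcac

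In KO cortex the RNA of Atf4, Ddit3, Chac1, Asns and Sesn2 was higher, and neither kinase was called. In a homogenate, fewer cells of a type and less RNA per cell cannot be told apart. RNA was called higher for these 5 of the 7 members that passed the filter and lower for 0, against 1.5% of all 10674 transcripts called higher. Footprints were called higher for 4 of the 7 (Atf4, Ddit3, Chac1 and Asns) and lower for 0, against 0.206% of all transcripts. The median log2 fold change over the 7 was 1.19 for RNA and 1.03 for footprints, while over all transcripts it was 0.04 for RNA and 0.00 for footprints. No member was called for translational efficiency in the interaction fit, nor was any of the 10674 transcripts, of which 4.35% had an unadjusted p under 0.05. Ddit3, counted in these shares and medians, passed the filter only through its KO values. Because the list was also made with such results in view, the shares and medians describe the members and are not independent support.

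**Figure D1:**
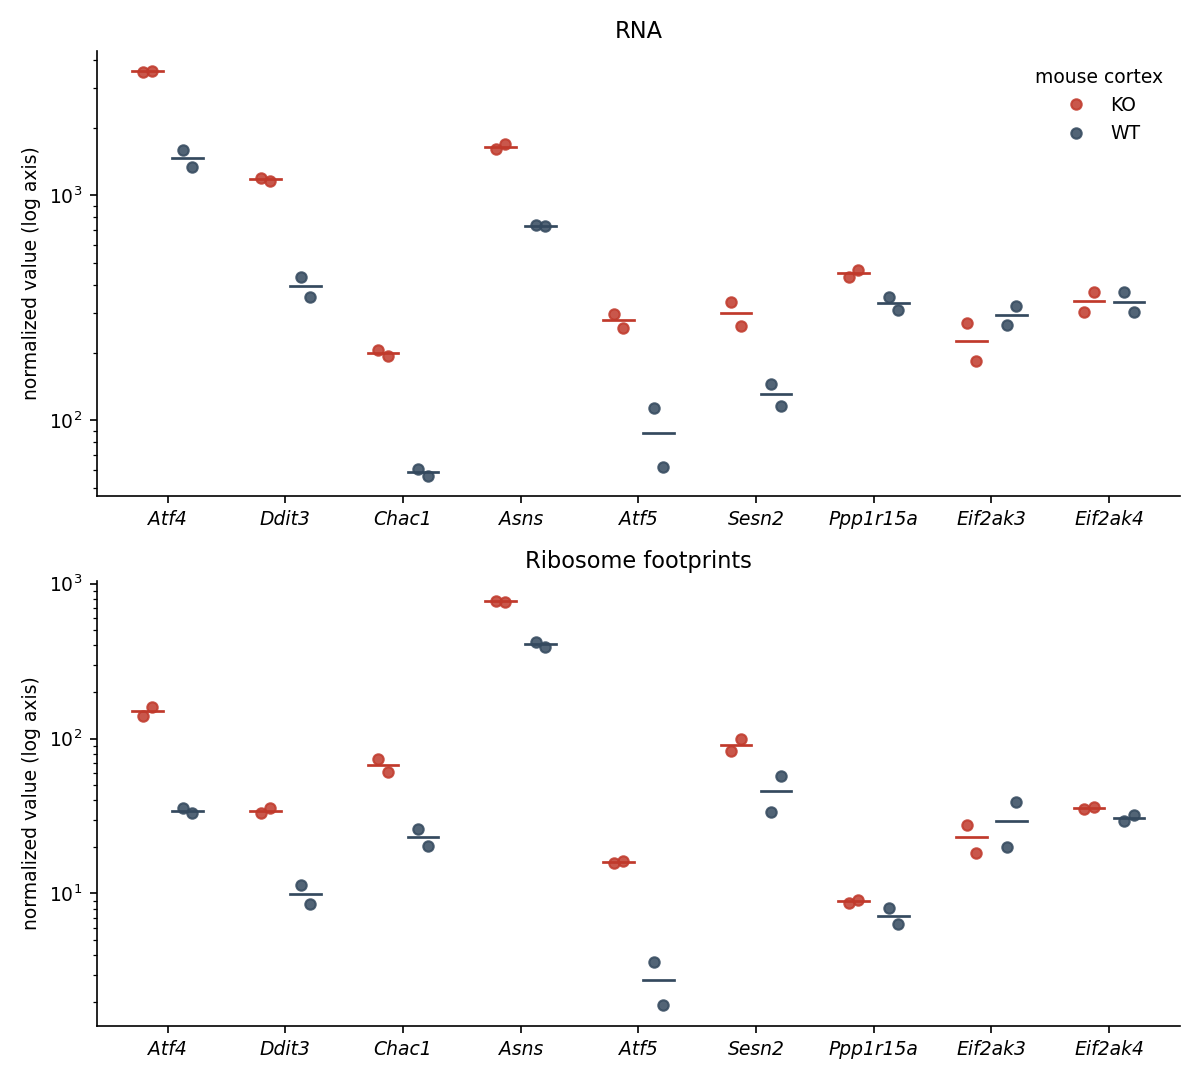
RNA (upper panel) and ribosome footprints (lower panel) of the 9 members in each mouse, as deposited normalized values on log axes, with KO mice in red left of WT mice in blue-grey, a dot per mouse and a bar at the group mean. In both panels the 2 KO mice lie above the 2 WT mice for Atf4, Ddit3, Chac1, Asns, Atf5, Sesn2 and Ppp1r15a, while Eif2ak3 overlaps in both and Eif2ak4 overlaps in RNA.

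The kinases come first in the pathway. Eif2ak4 encodes GCN2, which is activated by uncharged tRNA and by stalled ribosomes (chromosome 2, bases 118388618 to 118475234, GRCm38). Its RNA values were 303 and 373 in KO mice, against 370 and 302 in WT mice, so the groups overlapped almost wholly. The log2 fold change of RNA was 0.01, with a 95% interval of −0.33 to 0.34. Eif2ak4 footprints were 34.9 and 36.3 in KO mice, against 29.2 and 32.0 in WT mice. The footprint groups did not overlap, but the log2 fold change of 0.22 ± 0.25 (SE) missed the threshold (limma adjusted p = 0.788), with an interval of −0.32 to 0.75.

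Eif2ak3 encodes PERK, the kinase of the endoplasmic reticulum membrane that senses misfolded protein (chromosome 6, bases 70844515 to 70905245). RNA of Eif2ak3 was 269 and 182 in KO mice, against 265 and 324 in WT mice. Its footprints were 27.8 and 18.1 in KO mice, against 20.0 and 39.0 in WT mice. KO 1 lay between the WT mice in both readouts and KO 2 below both. Neither difference passed (RNA log2 fold change −0.40 ± 0.19 SE, limma adjusted p = 0.246; footprints −0.30 ± 0.35 SE, adjusted p = 0.782). The footprint interval of −1.05 to 0.44 leaves room for a change in either direction, and without WT 2 the value was 0.16.

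Atf4 (chromosome 15, bases 80255184 to 80257541) had the highest RNA level per kilobase of transcript among the members, with 2065 in KO and 848 in WT. Its RNA values were 3552 and 3573 in KO mice, against 1591 and 1336 in WT mice. The KO mice lay close together, well above both WT mice, for a log2 fold change of 1.29 ± 0.11 (SE) with a limma adjusted p of 0.00016. Atf4 footprints were 139 and 161 in KO mice, against 35.5 and 33.1 in WT mice. This was a log2 fold change of 2.09 ± 0.18 (SE, adjusted p = 0.00011), a 4.37-fold difference of the means, and it stood at place 2 from the highest among all 10674 transcripts, behind Mthfd2. In RNA, Atf4 stood at place 9.

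The fitted difference of Atf4 was larger in footprints than in RNA. Footprints per unit of RNA were 0.0391 and 0.0449 in KO mice, against 0.0223 and 0.0248 in WT mice, with both KO mice above both WT mice. The log2 fold change of translational efficiency was 0.80 ± 0.17 (SE), with a 95% interval of 0.42 to 1.18. After adjustment over all transcripts it missed the threshold in the interaction fit (limma adjusted p = 0.999), whereas a fit to the ratio of each mouse called it (adjusted p = 0.0139), with 5 transcripts (0.0468%) called higher and 13 lower in all. The Atf4 ratio was low in both genotypes, at percentile 6.35 of all transcripts in KO and at percentile 1.87 in WT, where 50 would be the middle of the table. Such ratios are not corrected for length, and the region over which RNA was counted is not stated, so percentiles are a description.

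Atf5, a relative of Atf4 that is also known for upstream reading frames (chromosome 7, bases 44812256 to 44816658), was among the lowest members in footprints. Its RNA values were 298 and 258 in KO mice, against 113 and 61.7 in WT mice. In the fit without the filter the RNA log2 fold change was 1.72 ± 0.24 (SE, limma adjusted p = 0.0040), against 1.25% of 12719 transcripts called higher there, and without WT 2 the adjusted p was 0.0516. Atf5 footprints were 15.7 and 16.1 in KO mice, against 3.61 and 1.90 in WT mice. The KO mice nearly coincided and lay above both WT mice, with a log2 fold change of 2.21 ± 0.50 (SE) that missed the threshold (limma adjusted p = 0.0741). With a mouse left out it ranged from 1.9 to 2.5. Its footprints per unit of RNA were 0.0527 and 0.0624 in KO mice, against 0.0319 and 0.0307 in WT mice. The fitted efficiency change of 0.49 ± 0.48 (SE) was not called and turned to −0.23 with a pseudocount of 5, a size above both WT footprint values.

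Ddit3 encodes CHOP, a transcription factor induced downstream of ATF4 (chromosome 10, bases 127290774 to 127296288). Ddit3 RNA was 1190 and 1163 in KO mice, against 433 and 354 in WT mice. Both KO mice lay far above either WT mouse, for a log2 fold change of 1.58 ± 0.12 (SE, limma adjusted p = 0.00010) at place 4 from the highest. Ddit3 footprints were 33.0 and 35.4 in KO mice, against 11.4 and 8.54 in WT mice. The footprint log2 fold change of 1.69 ± 0.33 (SE) passed the threshold (adjusted p = 0.0366) but did not pass without KO 1 (0.127) or without KO 2 (0.378). The fitted efficiency change of Ddit3 was 0.11 ± 0.26 (SE), with an interval of −0.46 to 0.68, and it turned to −0.18 with a pseudocount of 5. Its ratio lay at percentile 2.95 in KO and 2.24 in WT.

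**Figure D2:**
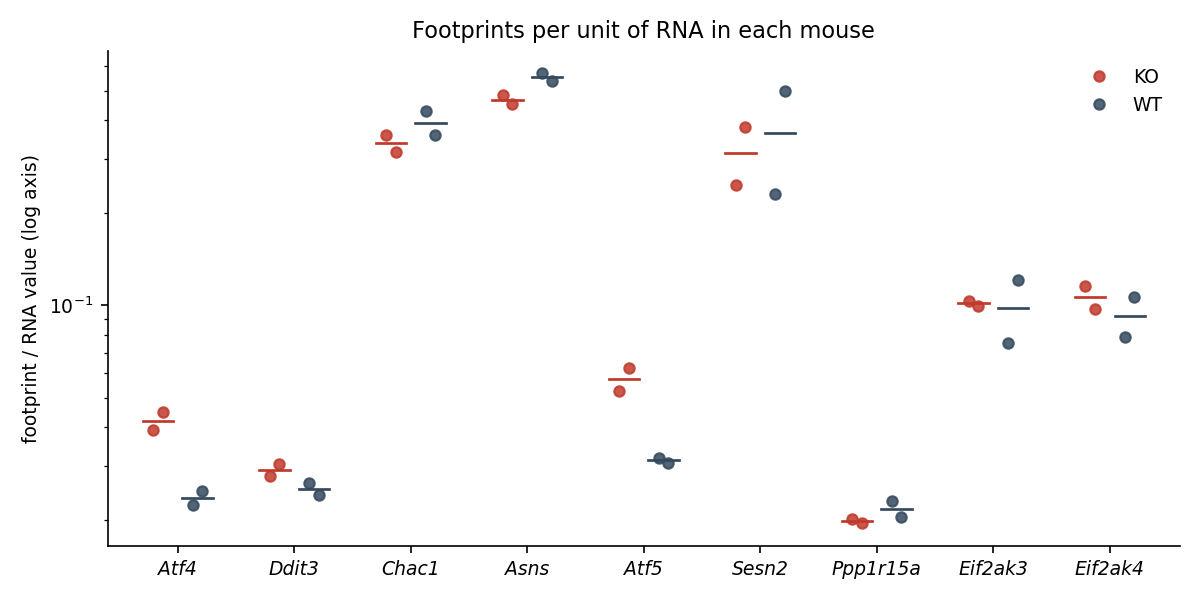
Footprints per unit of RNA for the 9 members in each mouse, on a log axis, with KO mice in red left of WT mice in blue-grey and a bar at the group mean. Atf4, Ddit3, Atf5 and Ppp1r15a sit below 0.07 in every mouse, and the KO mice lie above the WT mice for Atf4, Ddit3 and Atf5 and below them for Asns and Ppp1r15a.

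The enzymes among the effectors had higher ratios than the transcription factors, uncorrected for length as above. Asns encodes asparagine synthetase, which makes asparagine from aspartate and glutamine (chromosome 6, bases 7675169 to 7693254). RNA of Asns was 1600 and 1688 in KO mice, against 740 and 729 in WT mice. The RNA log2 fold change was 1.16 ± 0.10 (SE, limma adjusted p = 0.00024). Asns footprints were 773 and 763 in KO mice, against 421 and 391 in WT mice. In both readouts the genotypes were far apart relative to the spread between mice, with a footprint log2 fold change of 0.92 ± 0.09 (SE, adjusted p = 0.00015). Footprints per unit of RNA were 0.483 and 0.452 in KO mice, against 0.569 and 0.537 in WT mice, and the efficiency change of −0.24 ± 0.13 (SE) was not called (adjusted p = 0.999).

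Chac1 encodes an enzyme that splits glutathione into cysteinylglycine and oxoproline (chromosome 2, bases 119351229 to 119354381). Chac1 RNA was 205 and 193 in KO mice, against 60.5 and 56.7 in WT mice. The difference of the means was 3.40-fold, the widest in RNA among the members, with a log2 fold change of 1.75 ± 0.18 (SE, limma adjusted p = 0.00066) at place 3 among all transcripts. Chac1 footprints were 73.3 and 61.0 in KO mice, against 25.9 and 20.3 in WT mice. The footprint log2 fold change of 1.50 ± 0.25 (SE, adjusted p = 0.0134) was not called without KO 1 (0.0772) or without KO 2 (0.0645). Its ratio of footprints to RNA was 0.357 and 0.315 in KO mice, against 0.428 and 0.357 in WT mice, so the groups overlapped.

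Sesn2 encodes sestrin 2, a stress-induced leucine-binding protein that restrains mTORC1 (chromosome 4, bases 132492032 to 132510501). RNA of Sesn2 was 337 and 262 in KO mice, against 146 and 115 in WT mice. Both KO mice lay above both WT mice, with a log2 fold change of 1.19 ± 0.18 (SE, limma adjusted p = 0.0062). This call was lost without WT 2. Sesn2 footprints were 82.8 and 99.7 in KO mice, against 33.4 and 57.7 in WT mice. The WT mice were far apart, and the footprint log2 fold change of 1.03 ± 0.24 (SE) missed the threshold (adjusted p = 0.0779). Without WT 2 it was 1.42, with a single WT mouse left.

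Ppp1r15a encodes GADD34, the phosphatase subunit that reverses phosphorylation of eIF2 and closes the loop (chromosome 7, bases 45522917 to 45526268). Ppp1r15a RNA was 433 and 467 in KO mice, against 352 and 310 in WT mice. The groups did not overlap, but the difference was small beside those of Atf4 and Ddit3, with a log2 fold change of 0.45 ± 0.13 (SE, limma adjusted p = 0.0904, no filter). Ppp1r15a footprints were 8.69 and 9.10 in KO mice, against 8.08 and 6.32 in WT mice, for a log2 fold change of 0.28 ± 0.46 (SE, adjusted p = 0.867). Its ratio was the lowest of the members in both genotypes, at percentile 1.22 of all transcripts in KO and 1.47 in WT.

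**Figure D3:**
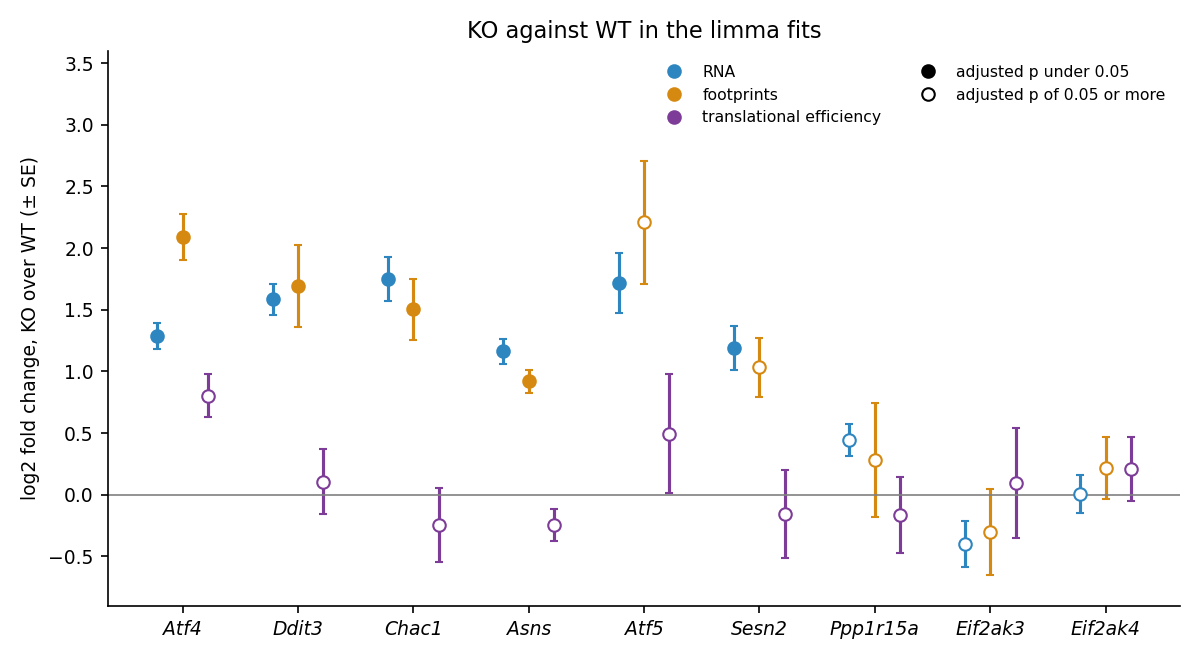
Log2 fold change of KO over WT with its standard error for RNA (blue), footprints (orange) and translational efficiency (purple), filled where the limma adjusted p is under 0.05; Atf5 and Ppp1r15a are from the fit without the filter. Atf4 (RNA 1.29, footprints 2.09) and Atf5 (RNA 1.72, footprints 2.21) have footprint values above their RNA values, Asns and Chac1 below, and no efficiency value is filled.

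Over all 9 members, with no test, both KO mice lay above both WT mice for 7 in RNA and for 8 in footprints, against 28.6% of the 12719 transcripts in RNA and 21.5% in footprints. For the ratio this held for 3 members (Atf4, Ddit3 and Atf5), against 15.7% of transcripts. Ordered by RNA per kilobase of transcript in KO, Atf4 (2065) was followed by Ddit3 (1322), Asns (822), Ppp1r15a (193), Atf5 (153), Chac1 (122), Sesn2 (86.2), Eif2ak4 (64.8) and Eif2ak3 (50.1). In WT the order began the same way with Atf4 (848), Ddit3 (442), Asns (367) and Ppp1r15a (142), but the kinases came next with Eif2ak3 (65.2) and Eif2ak4 (64.5), above Atf5 (48.2), Sesn2 (37.6) and Chac1 (35.8). This place of the kinases depends on the length used, since per kilobase of coding sequence Atf5 (103) and Sesn2 (90.7) lay above Eif2ak3 (88.0) and Eif2ak4 (68.0) in WT. Neighbours in the WT order from Eif2ak3 down to Chac1 differ by less than 1 SD between mice of one of the pair, while in KO all neighbours differ by more. The members with the highest RNA per length were not those with the most footprints per coding length, where Asns led with 456 in KO and 241 in WT, against 143 in KO and 32.8 in WT for Atf4.

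Features of the mRNAs were read from GENCODE vM21. Upstream reading frames are part of what Atf4 and Atf5 are known for in this pathway, so their share is a description. An ATG upstream of the coding start lay in the annotated transcript of 7 of the 9 members (77.8%), against 49.8% of 12588 annotated transcripts. The stretch before the coding start had a median length of 211 bases in the members, against 170 over all annotated transcripts. Atf4, Ppp1r15a and Eif2ak3 had 3 each, Ddit3, Asns and Atf5 had 2 each, Sesn2 had 1, and Chac1 and Eif2ak4 had 0. The 4 members with the lowest ratios (Atf4, Ddit3, Atf5 and Ppp1r15a) each had 2 or 3, but Asns also had 2 and a ratio at percentile 95.0 in KO and 96.7 in WT. Glycine codons made up a median 6.02% of the members' codons, against 6.30% over all annotated transcripts, and the GGA codon 1.19%, against 1.52%.

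The other genes of the pathway were taken as lists by role, and a gene with several roles was counted in each. These lists were chosen with earlier results of these data known, so their counts are a description. Over all transcripts, 1.5% were called higher in RNA and 0.206% in footprints. Of 20 genes tested for eIF2 itself, its exchange factor eIF2B, its phosphatases, the other kinases and factors linked to them, 1 was called higher and 0 lower in each of RNA and footprints, and the median log2 fold change was 0.10 in RNA and 0.05 in footprints. The called gene was Eif2s2, the beta subunit of eIF2, with RNA values of 1801 and 1939 in KO mice, against 1087 and 1055 in WT mice. Its footprints were 226 and 234 in KO mice, against 125 and 131 in WT mice, a log2 fold change of 0.84 ± 0.13 (SE, limma adjusted p = 0.0099) that was not called without KO 2 (0.0976). Of 12 basic leucine zipper factors tested as possible partners or relatives of ATF4, RNA of Cebpg (0.72 on the log2 scale) and Nfe2l1 (0.41) was called higher and that of Jun (−0.70) lower, and footprints of 0 were called. None of these 3 RNA calls was kept when KO 2 or WT 2 was left out.

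Of 27 other genes tested that are known as ATF4 targets or are relatives of the members, 23 had a positive RNA log2 fold change. Their median was 0.34, against 0.04 over all transcripts. RNA was called higher for 6 and lower for 0, against 1.5% of all transcripts called higher. Footprints were called higher for 2 and lower for 0, against 0.206%. Pycr1 (mean footprint value 25.2 in KO, 6.72 in WT) and Nupr1 (20.2 and 9.73) passed the filter through their KO values. The counts and median of this list are therefore a description. Mthfd2, a mitochondrial enzyme of folate metabolism, had RNA values of 349 and 329 in KO mice, against 61.4 and 63.7 in WT mice. This gap gave it place 1 among all transcripts in both RNA (2.42 ± 0.16 SE on the log2 scale) and footprints (2.23 ± 0.30). Psph, which makes serine from phosphoserine, had RNA values of 306 and 286 in KO mice, against 131 and 107 in WT mice, and was called in footprints too (1.07 ± 0.18 SE). Both footprint calls were lost without KO 2 (limma adjusted p = 0.0795 for Mthfd2 and 0.159 for Psph). Shmt2, a mitochondrial enzyme that interconverts serine and glycine (RNA 1.40), Slc7a5, a transporter of large neutral amino acids (0.82), Cebpg (0.72) and Slc38a2, a transporter of small neutral amino acids (0.51), were called in RNA and not in footprints. RNA calls of Mthfd2, Psph and Shmt2 were kept with any one mouse left out. The RNA call of Cebpg was lost without KO 2 or WT 2, and that of Slc7a5 without KO 1, WT 1 or WT 2. That of Slc38a2 was lost without KO 1, KO 2 or WT 2. Shmt2 footprints ranged from 0.53 to 1.14 on the log2 scale with a mouse left out.

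All 20 cytosolic aminoacyl-tRNA synthetases, which charge tRNAs and many of which are ATF4 targets, had a positive RNA log2 fold change, with a median of 0.51. RNA was called higher for 11 (Aars, Cars, Eprs, Gars, Iars, Mars, Nars, Sars, Tars, Vars and Yars) and lower for 0. Footprints were called higher for 6 (Aars, Cars, Nars, Sars, Vars and Yars) and lower for 0. Over all transcripts the RNA median was 0.04, with 1.5% called higher in RNA and 0.206% in footprints. This list too was chosen with earlier results known, so its counts are a description. Cars, the enzyme for cysteine, had RNA values of 823 and 743 in KO mice, against 384 and 376 in WT mice, the widest of the list (1.04 ± 0.12 SE on the log2 scale). Sars, the enzyme for serine, had 3437 and 3609 in KO mice, against 1862 and 1732 in WT mice (0.97 ± 0.10 SE). Tars, for threonine, was called in RNA (0.63) with a footprint value of 0.06, which turned negative without KO 2 or WT 2 (lowest −0.09). Of the 11 RNA calls, 9 were kept without KO 1, 7 without KO 2, 10 without WT 1 and 5 without WT 2. Of the 6 footprint calls, 4 were kept without KO 1, 2 (Sars and Yars) without KO 2 and 6 without either WT mouse.

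Chaperones, folding enzymes and regulators of the unfolded protein response to endoplasmic reticulum stress, to which PERK also belongs, were tested for comparison. Of 18 with enough footprints, 0 were called in RNA or footprints by limma (3 in each had an unadjusted p under 0.05), and the median log2 fold change was −0.05 in RNA and −0.19 in footprints. The 4 with the smallest unadjusted p in footprints were Sel1l (−0.53), Xbp1 (0.70), Pdia4 (−0.51) and Pdia3 (−0.35), with adjusted p of 0.192 to 0.418. The largest RNA value was that of Herpud1 (0.59, limma adjusted p = 0.0529), which is named after its values were seen. With a mouse left out, Herpud1 RNA ranged from 0.40 to 0.78 and Pdia4 RNA from −0.75 to −0.09. Footprint values moved with the mouse left out, from −0.76 to −0.31 for Sel1l and from −0.58 to −0.11 for Pdia3. Hspa5 ranged from −0.58 to −0.05 and Xbp1 from 0.35 to 1.06. Calr (−0.55 to 0.05) and Hsp90b1 (−0.61 to 0.17) changed sign.

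**Figure D4:**
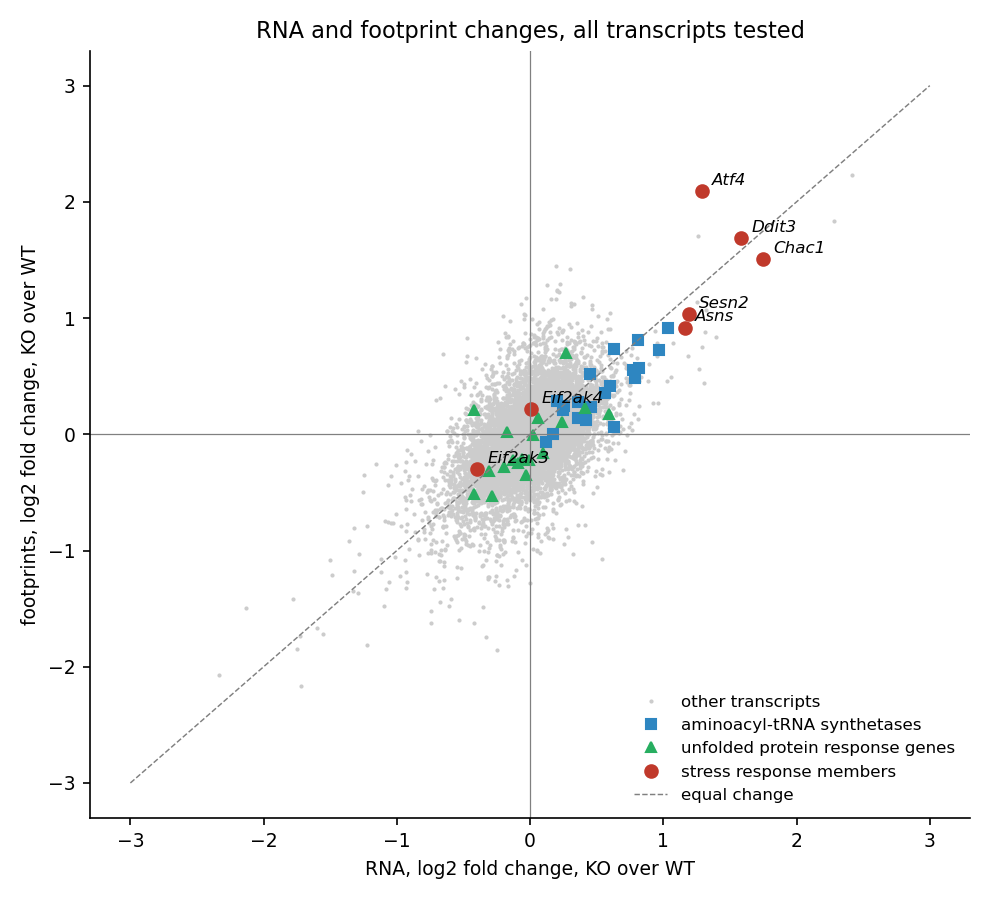
Log2 fold change of KO over WT in RNA (horizontal) and footprints (vertical) for the 10674 transcripts tested, with the 7 members that passed the filter in red, 20 aminoacyl-tRNA synthetases as blue squares, 18 unfolded protein response genes as green triangles and the dashed line at equal change. Atf4 stands above the line (1.29 in RNA, 2.09 in footprints), Ddit3, Chac1, Sesn2 and Asns near it, the synthetases between 0.12 and 1.04 in RNA, and most unfolded protein response genes around 0.

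Markers of the cortical cell types were summed in each mouse. Summed RNA of 6 of 6 inhibitory neuron markers was 7986 and 8154 in KO mice, against 6356 and 6135 in WT mice, and that of 6 of 6 excitatory neuron markers was 67736 and 68298 in KO mice, against 83836 and 76182 in WT mice. Footprint sums of both neuron lists did not overlap either, with 1963 and 2092 in KO mice, against 1774 and 1657 in WT mice, for inhibitory markers and 3615 and 3670 in KO mice, against 3909 and 4026 in WT mice, for excitatory markers. Within these lists, RNA and footprints of Gad1, Gad2 and Pvalb lay higher in both KO mice, while those of Slc32a1, Sst and Vip overlapped. Of the excitatory markers, only Camk2a and Nrgn lay apart in RNA, lower in KO. Summed RNA of 6 of 6 microglia markers was 469 and 368 in KO mice, against 490 and 686 in WT mice, while their summed footprints overlapped, with 114.6 and 101.4 in KO mice, against 111.6 and 185.9 in WT mice. Of 6 endothelial and blood markers 4 were listed, with summed RNA of 950 and 880 in KO mice, against 538 and 751 in WT mice, and summed footprints of 469 and 505 in KO mice, against 352 and 439 in WT mice. Most of these sums came from the haemoglobin genes Hba-a1 and Hbb-bs, whereas RNA and footprints of the endothelial markers Cldn5 and Flt1 overlapped between the genotypes. The astrocyte and oligodendrocyte sums overlapped between the genotypes in both readouts, and no listed marker was at 0 in any mouse. Most of the astrocyte RNA sum came from Slc1a2. Of the 6 astrocyte markers, 2 had a positive and 4 a negative RNA log2 fold change, with a median of −0.19. Aldh1l1 RNA was 310 and 271 in KO mice, against 434 and 327 in WT mice. Single markers called were Pvalb of interneurons (RNA 0.76 on the log2 scale), Gfap of astrocytes (RNA 0.76, footprints 0.75) and Cx3cr1 of microglia (RNA −0.73), each lost without WT 2 in RNA (limma adjusted p of 0.102 to 0.196), Cx3cr1 also without KO 1 (0.177) and the Gfap footprint call without KO 1 (0.147) or KO 2 (0.228). The part of these differences in the members' values was not tested.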

How the data were processed

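Cortex of 2 KO and 2 WT mice was profiled (4 mice, 8 libraries); the other tables of the study were not used here. The deposited values are a signal: the authors scaled RNA counts by medians, and corrected footprint counts for stalled codons with CELP in Ribolog before scaling by medians. The methods state that transcripts with a count of 0 were removed; the table has no RNA value of 0 but 35 to 50 footprint values of 0 per mouse. The submitters' processing notes name Bowtie2 2.4.2, SAMtools 1.11, cutadapt 3.1 and UMI-tools 1.1.1. The region over which RNA reads were counted is not given in the sources used here. Whole reads could not be recovered with certainty, so no count test was run.

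Transcript identifiers were matched to symbols of GENCODE vM21 (12701 of 12719). Values were tested as log2(value + 1), which understates changes of low genes, with limma 3.58.1 (trend) in R 4.3.3, for transcripts with a mean footprint value of at least 10. For translational efficiency, 1 model held both kinds of library, and its genotype-by-kind term was tested. P-values were adjusted by Benjamini-Hochberg. Mice are separate animals, and p-values rest on the spread between libraries of a genotype, moderated over all transcripts. The efficiency model had no term for the mouse, so it did not pair the RNA and footprint libraries of an animal. The ratio per mouse kept that pairing. Scripts (Python 3.11.15, pandas 2.3.3, numpy 2.4.6, matplotlib 3.10.9) were tested on simulated data. Members and lists were chosen with earlier results of these data known. Named genes are the members, Nsun2 and, from each list, those called, or else up to 4 with the smallest p in footprints. Outside this rule, Herpud1, Hspa5, Calr, Hsp90b1, Pycr1, Nupr1 and some cell type markers were also named. Alternatives were other pseudocounts, filters and scalings, a replicate block, and each mouse left out.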

Additional observations from a re-analysis of the deposited data

How the results depend on the processing

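With 2 mice per genotype, the number of transcripts called moved with single mice more than with scaling. Leaving out each mouse in turn gave 35 to 256 transcripts higher and 15 to 258 lower in RNA (main values 160 and 176), and 5 to 166 higher and 12 to 382 lower in footprints (22 and 41). A filter at a mean footprint value of 50 gave 117 lower in RNA, and 14 higher and 11 lower in footprints, with fewer transcripts tested. Efficiency as a ratio per mouse gave 5 higher and 13 lower, against 0 and 0.

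Same-numbered mice share only a number (correlation of their deviations −0.11 in RNA and −0.15 in footprints). A replicate block gave 4 higher and 2 lower in RNA and 2 higher and 1 lower in footprints; 3 of the 5 members called in RNA and 2 of the 4 called in footprints were kept. The crossed pairing, chosen after seeing the data, gave 494 higher and 553 lower in RNA and 136 higher and 298 lower in footprints.

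Of 228 member values under alternatives other than leaving out a mouse, 213 kept direction and side of the threshold, 5 lost a call, 5 gained one and 5 changed sign. The sign changes were efficiency of Ddit3 (−0.18) and Atf5 (−0.23) with a pseudocount of 5, and Eif2ak4 RNA, near 0 throughout, scaled to sums (−0.014), by median log ratios (−0.016) or to quantiles (−0.0051). Of 108 with a mouse left out, 93 kept both and 7 changed sign, within Sesn2 efficiency (−0.71 to 0.39), Eif2ak3 footprints (−0.77 to 0.16), Eif2ak3 efficiency (−0.22 to 0.42), Eif2ak4 RNA (−0.14 to 0.16) and Eif2ak4 efficiency (−0.0025 to 0.42); among other genes, Tars footprints (−0.089 to 0.22) and RNA of Pdia3 (−0.36 to 0.30), Calr (−0.30 to 0.12), Hsp90b1 (−0.21 to 0.18) and Hspa5 (−0.62 to 0.0052) did so, as did footprints of Calr (−0.55 to 0.049) and Hsp90b1 (−0.61 to 0.17). RNA per coding length in place of transcript length moved 3 members to another place in the order in KO and 5 in WT. The cause of these shifts was not tested. Footprint depth is unknown, which limits Atf5 and Ppp1r15a most.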
